A study of Saccharomyces cerevisiae with 14 samples.

Results

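The genes described here are the 8 genes of acetaldehyde and acetate metabolism in budding yeast that carry the names ALD2, ALD3, ALD4, ALD5, ALD6, ACS1, ACS2 and ACH1. They were taken by gene symbol from a table of 5886 genes. All 8 were found there, and all 8 passed a filter on low values that left 5727 genes.

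Yeast growing on glucose turns pyruvate into acetaldehyde, most of which is reduced to ethanol. The remainder is oxidised to acetate by aldehyde dehydrogenases, the ALD genes, and acetate is joined to coenzyme A to give acetyl-CoA, which feeds lipids, sterols, histone acetylation and, in mitochondria, the citric acid cycle. Several enzymes of this route are repressed while glucose is plentiful and are made when cells turn to ethanol or acetate, or under stress, so the balance between them is known to move with the growth state of a culture.

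RNA was sequenced from cultures in logarithmic growth in rich glucose medium (YPD), in a study of genes whose reduction lengthens replicative lifespan. MSB3Δ, NIT3Δ and HSP26Δ lacked MSB3, a GTPase-activating protein of Rab GTPases, NIT3, a member of the nitrilase family, or HSP26, a small heat shock protein, with 3 libraries each. TYS1 DAmP (3 libraries) had a lowered amount of TYS1, the essential cytosolic tyrosyl-tRNA synthetase, through a resistance cassette placed just behind the coding sequence, which destabilises the transcript. The comparison strain was WT with 2 libraries, so 14 libraries were compared in all, and the WT libraries served all 4 comparisons. The labels name S288C for every sample, and the study states that these profiles were made in the MATa strain BY4741 (his3Δ1 leu2Δ0 met15Δ0 ura3Δ0). Its methods also describe the MATα strain BY4742. Whether each mutant was represented by 1 clone or several is not given in the sources used here, and p-values measure the spread between these libraries only.

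Levels are given as FPKM, fragments counted relative to transcript length and to all mapped fragments, which corrects for gene length and allows genes to be set beside each other. The steps between low FPKM values placed the depth at an estimated 20.1 to 23.9 M fragments per library. At the depths so chosen, 93.6% of 643 low values were within 0.15 of a whole number. The depths were fitted to these same values, so this share describes the fit and is not a check of it. At this depth ALD3 rested on an estimated 368 fragments in its lowest library and ACS1 on 372, so all 8 genes were far above a floor of 3 fragments. The targeted transcript was low in the strain named for it. MSB3 averaged 0.00667 ± 0.0115 FPKM in MSB3Δ and 18.0 ± 2.83 in WT, NIT3 averaged 0.11 ± 0.149 in NIT3Δ and 271 ± 0.537 in WT, HSP26 averaged 0.103 ± 0.0404 in HSP26Δ and 86.0 ± 12.1 in WT, and TYS1 averaged 73.4 ± 8.34 in TYS1 DAmP and 537 ± 35.6 in WT (SD, n = 3 and n = 2). The a-cell receptor gene STE2 was at 90.5 FPKM or more in all libraries, and MET17 (MET15), which is deleted in BY4741 and not in BY4742, was at most at 0.03. Other markers were less clear. The a-cell gene BAR1 ran from 3.61 to 175.52 FPKM. The α-cell genes STE3 and MF(ALPHA)2 were present at 4.99 to 19.46 and 4.97 to 10.68, and MF(ALPHA)1 reached at most 2.13. HIS3 was at 121.58 to 230.93 FPKM, and BY4741 carries his3Δ1. An FPKM value does not show whether a transcript is whole, so HIS3 was not read as a mark of the strain. MFA1, MFA2, LEU2 and URA3 were not among the genes given.
NIT3Δ replicate 2 and MSB3Δ replicate 1 stood apart in ribosomal protein transcripts before any comparison. Genes of cytosolic ribosomal proteins made up 17.4% of summed FPKM in NIT3Δ replicate 2 and 29.0% in MSB3Δ replicate 1, between 37.1% and 44.6% in the other mutant libraries, and 47.0% and 45.6% in WT. The summed level of 4 stationary phase genes (SPG1, SPG4, SPG5 and SNZ1) was 1557 FPKM in NIT3Δ replicate 2 and 532 in MSB3Δ replicate 1, between 72.3 and 365 in the other mutant libraries, and 67.9 and 70.5 in WT. SPG4 alone made up 1277 and 402 FPKM of the first values, while SNZ1 was at 21.2 and 26.9 there and at 19.3 and 20.8 in WT. In TYS1 DAmP replicate 1, with the sum of 365, SNZ1 made up 275. A change in a bulk library cannot tell more RNA per cell from more cells in a given state.

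In WT the 8 genes fell into an abundant and a scarce set. ALD5 averaged 197 ± 40.3 FPKM, ALD6 159 ± 98.2, ACS2 144 ± 0.212, ALD4 63.0 ± 2.86, ACH1 50.2 ± 1.56, ALD2 16.4 ± 0.559, ALD3 13.3 ± 0.269 and ACS1 9.48 ± 0.474 (SD, n = 2). ALD5 lay above ACS2 in both WT libraries, but ALD6 overlapped with both, at 89.6 FPKM in WT replicate 1 and 229 in WT replicate 2. From ALD4 downwards each gene lay above the next in both WT libraries. ACS1 exceeded 12.8% of all genes in WT and ALD5 84.0%. Across all 14 libraries the highest value was 15.0 times the lowest for ALD3, 7.33 times for ALD4, 6.17 times for ALD5, 5.69 times for ALD2, 5.12 times for ALD6, 3.97 times for ACS1, 3.66 times for ACH1 and 1.78 times for ACS2, the steadiest of the 8.

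**Figure D1:**
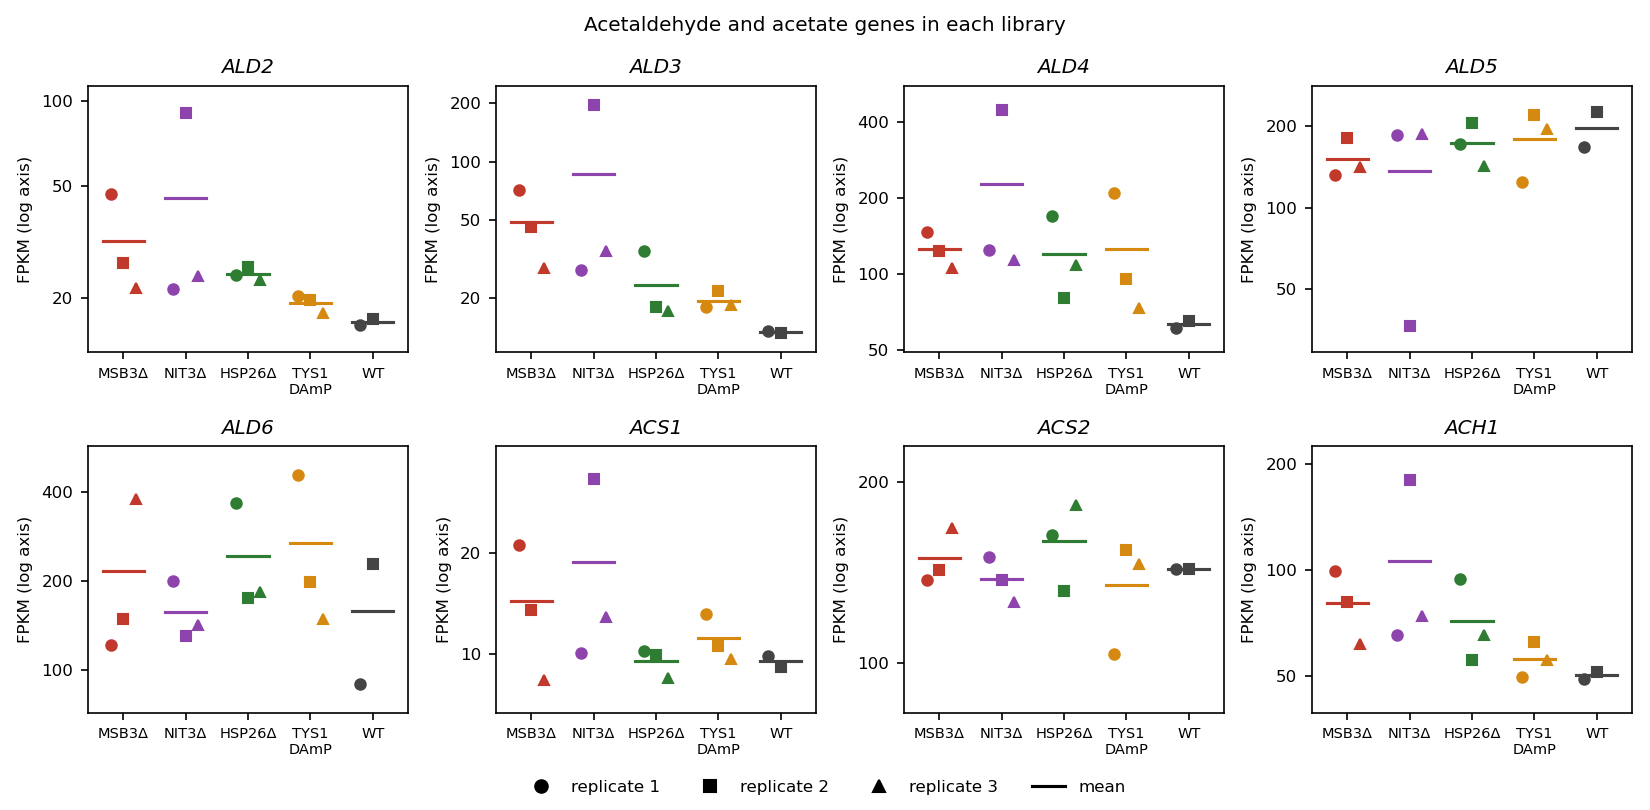
FPKM on a log axis for each of the 8 genes, with 1 point per library, the replicate number shown by the marker and the group mean by a bar; the axis range differs between genes. All 12 mutant points of ALD2, ALD3 and ALD4 lie above both WT points, NIT3Δ replicate 2 is the highest point of ALD2, ALD3, ALD4, ACS1 and ACH1 and the lowest of ALD5, and ALD6 has widely spread points in WT itself.

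ALD2 and ALD3 encode cytosolic aldehyde dehydrogenases that are known to be induced by stress and to supply β-alanine for pantothenate synthesis. They are neighbours on the minus strand of chromosome XIII of the R64 build, ALD2 (YMR170C) at positions 601562 to 603082 and ALD3 (YMR169C) at 599352 to 600872, each 1521 bases in 1 coding exon, with 689 bases and no other gene between them. Their coding sequences were identical at 1396 of 1521 positions (91.8%). The first 329 coding bases, together with the 13 bases before the start codon, were the same in both. Of all 50-base windows of ALD2, 40.4% also occurred in ALD3. Fragments lying wholly within the identical stretches could not be placed by sequence alone. The window of 50 bases was chosen here, and the length and pairing of the reads were not taken into account. No 50-base window was shared between any other pair of the 8 genes, and the next closest pair, ALD4 and ALD5, was 63.7% identical. The copies parted right after the shared start. The 100 coding bases that differed most, positions 326 to 425 of both genes, are shown because they are the kind of stretch that told the copies apart, with the 29 positions that differ in capitals (ALD2 at chromosome XIII 602658 to 602757 and ALD3 at 600448 to 600547, R64, minus strand, coding strand printed 5′ to 3′).
ALD2: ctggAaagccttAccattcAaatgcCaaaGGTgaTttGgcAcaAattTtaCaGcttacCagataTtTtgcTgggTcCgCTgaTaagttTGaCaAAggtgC
ALD3: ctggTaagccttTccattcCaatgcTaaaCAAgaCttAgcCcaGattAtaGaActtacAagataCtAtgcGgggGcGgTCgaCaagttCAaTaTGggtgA

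ALD3 had the widest range of the 8 over the libraries and the largest log2 fold changes in MSB3Δ and NIT3Δ. It was at 71.6, 46.4 and 28.5 FPKM in MSB3Δ, at 27.7, 196 and 34.6 in NIT3Δ, at 34.8, 17.9 and 17.2 in HSP26Δ and at 17.9, 21.7 and 18.3 in TYS1 DAmP, against 13.5 and 13.1 in WT. Every mutant library was above both WT libraries, and MSB3Δ and NIT3Δ did not overlap TYS1 DAmP. Log2 fold changes were taken after adding 1 FPKM to each value, so those of scarce transcripts come out too small. For ALD3 MSB3Δ gave 1.71 ± 0.353 (SE), NIT3Δ 2.04 ± 0.798, HSP26Δ 0.69 ± 0.296 and TYS1 DAmP 0.50 ± 0.162. A gene is said to rise or fall below where its fold was over 1.5 or under 0.7. In addition, p from limma had to be under 0.05 before adjustment. The study gives the same thresholds for fold and p but does not say whether its p was adjusted. It reports fewer genes past them in each mutant than were called here, so a call here is not a call of the study. ALD3 rose in MSB3Δ (95% interval 0.87 to 2.55, adjusted p = 0.398 in limma) and in NIT3Δ (0.12 to 3.96, adjusted p = 0.563 in limma). In HSP26Δ the interval, −0.00 to 1.39, just reached 0, and in TYS1 DAmP the interval was above 0 (0.11 to 0.89) but the fold was 1.42.
ALD2 was at 46.9, 26.6 and 21.7 FPKM in MSB3Δ, at 21.4, 90.8 and 23.9 in NIT3Δ, at 24.1, 25.6 and 23.1 in HSP26Δ and at 20.3, 19.6 and 17.6 in TYS1 DAmP, against 16.0 and 16.8 in WT. It too was above both WT libraries in every mutant library, by the least in TYS1 DAmP. It rose at these thresholds in MSB3Δ (log2 fold change 0.84 ± 0.313, adjusted p = 0.652 in limma). In HSP26Δ the 3 libraries lay close together and the interval was above 0 (0.23 to 0.85, adjusted p = 0.189 in limma), but the fold of 1.46 was short of 1.5. The log2 fold changes of ALD2 in NIT3Δ (1.10 ± 0.612) and TYS1 DAmP (0.22 ± 0.153) did not pass.
Because reads can be split between the copies, their sum was also tested as 1 gene in place of both. MSB3Δ had a sum of 118, 73.0 and 50.2 FPKM, NIT3Δ of 49.1, 287 and 58.6, HSP26Δ of 58.9, 43.5 and 40.2 and TYS1 DAmP of 38.2, 41.3 and 35.8, against 29.4 and 29.8 in WT. The summed level rose in MSB3Δ (log2 fold change 1.33 ± 0.339, adjusted p = 0.539 in limma) and HSP26Δ (0.65 ± 0.186, adjusted p = 0.241 in limma). In NIT3Δ the sum had a larger log2 fold change with a wider error (1.63 ± 0.73, 95% interval −0.12 to 3.39), so the call on ALD3 there did not extend to the sum.

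ALD4 (YOR374W, chromosome XV 1039840 to 1041399, R64, plus strand, 1 coding exon) encodes the main mitochondrial acetaldehyde dehydrogenase, which is needed for growth on ethanol and is repressed by glucose. It was at 147, 123 and 105 FPKM in MSB3Δ, at 124, 447 and 114 in NIT3Δ, at 170, 80.2 and 108 in HSP26Δ and at 209, 95.3 and 73.1 in TYS1 DAmP, against 60.9 and 65.0 in WT. No mutant library overlapped WT, but HSP26Δ and TYS1 DAmP spread widely among themselves. ALD4 rose in MSB3Δ (log2 fold change 0.97 ± 0.2, adjusted p = 0.398 in limma), NIT3Δ (1.54 ± 0.59, adjusted p = 0.563) and HSP26Δ (0.85 ± 0.293, adjusted p = 0.28), and was the only one of the 8 to pass in 3 mutants. TYS1 DAmP had a log2 fold change of 0.84 ± 0.424 with an interval that crossed 0 (−0.18 to 1.86). There replicate 1 carried much of the value: without it the log2 fold change of ALD4 was 0.40 ± 0.149, under the fold of 1.5.

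ACH1 (YBL015W, chromosome II 194122 to 195702, R64, plus strand, 1 coding exon) encodes a mitochondrial enzyme that moves coenzyme A between acetate and succinate. It was at 99.2, 81.3 and 61.7 FPKM in MSB3Δ, at 65.3, 180 and 73.8 in NIT3Δ, at 94.3, 55.6 and 65.3 in HSP26Δ and at 49.7, 62.5 and 55.6 in TYS1 DAmP, against 49.1 and 51.4 in WT. It was above both WT libraries in 11 of the 12 mutant libraries, TYS1 DAmP replicate 1 being the exception. ACH1 rose in MSB3Δ (log2 fold change 0.65 ± 0.228, adjusted p = 0.652 in limma). The log2 fold changes in NIT3Δ (0.91 ± 0.442), HSP26Δ (0.47 ± 0.226) and TYS1 DAmP (0.15 ± 0.161) did not pass.

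ALD5 and ALD6, the other dehydrogenases, did not pass in any mutant. ALD5 (YER073W, chromosome V 304030 to 305592, R64, plus strand) encodes a second mitochondrial enzyme. It was at 132, 180 and 141 FPKM in MSB3Δ, at 186, 36.5 and 187 in NIT3Δ, at 172, 206 and 143 in HSP26Δ and at 124, 221 and 194 in TYS1 DAmP, against 168 and 225 in WT. None of the 12 mutant libraries was above both WT libraries and 5 were below both, the lowest being NIT3Δ replicate 2. MSB3Δ had a log2 fold change of −0.37 (95% interval −0.92 to 0.17), NIT3Δ of −0.84 (−2.56 to 0.88), HSP26Δ of −0.18 (−0.69 to 0.33) and TYS1 DAmP of −0.16 (−0.84 to 0.53). Without NIT3Δ replicate 2 the value in NIT3Δ was −0.06.
ALD6 (YPL061W, chromosome XVI 432588 to 434090, R64, plus strand) encodes the cytosolic enzyme that makes most of the acetate on glucose and yields NADPH. It was at 122, 148 and 380 FPKM in MSB3Δ, at 200, 131 and 142 in NIT3Δ, at 369, 176 and 184 in HSP26Δ and at 459, 199 and 149 in TYS1 DAmP, against 89.6 and 229 in WT. Only 3 mutant libraries left the WT range, 1 each of MSB3Δ, HSP26Δ and TYS1 DAmP, and all 3 were above it. The WT libraries differed more for ALD6 than for any other of the 8, and the 95% intervals were wide, on the log2 scale −0.96 to 1.77 for MSB3Δ, −0.91 to 1.14 for NIT3Δ, −0.41 to 1.75 for HSP26Δ and −0.64 to 2.10 for TYS1 DAmP. In MSB3Δ, HSP26Δ and TYS1 DAmP the log2 fold change of ALD4 lay inside the interval of ALD6, so a change of that size in ALD6 could not be told from none there. In NIT3Δ it lay outside, but without NIT3Δ replicate 2 it was 0.91, inside an ALD6 interval of −1.89 to 2.35. ALD4 and ALD6 were not tested against each other.

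The acetyl-CoA synthetases differed in level and in spread. ACS1 (YAL054C, chromosome I 42881 to 45022, R64, minus strand) encodes the glucose-repressed isoenzyme with high affinity for acetate. It was at 21.1, 13.5 and 8.35 FPKM in MSB3Δ, at 10.1, 33.1 and 12.8 in NIT3Δ, at 10.2, 9.90 and 8.49 in HSP26Δ and at 13.1, 10.5 and 9.64 in TYS1 DAmP, against 9.82 and 9.15 in WT. It was above both WT libraries in 9 of 12 mutant libraries and below both in 2. The log2 fold changes were 0.46 ± 0.354, 0.73 ± 0.509, 0.00 ± 0.161 and 0.20 ± 0.189 in MSB3Δ, NIT3Δ, HSP26Δ and TYS1 DAmP, and none passed.
ACS2 (YLR153C, chromosome XII 445524 to 447575, R64, minus strand) encodes the isoenzyme that supplies cytosolic and nuclear acetyl-CoA on glucose. It was at 138, 143 and 168 FPKM in MSB3Δ, at 150, 137 and 127 in NIT3Δ, at 164, 132 and 184 in HSP26Δ and at 103, 154 and 146 in TYS1 DAmP, against 143 and 144 in WT. Its libraries were split evenly, with 6 of 12 above and 6 of 12 below both WT libraries. The 95% interval of the log2 fold change ran from −0.39 to 0.49 for MSB3Δ, from −0.55 to 0.43 for NIT3Δ, from −0.29 to 0.57 for HSP26Δ and from −0.62 to 0.40 for TYS1 DAmP, so that a change as large as that of ALD3 in MSB3Δ lay outside the interval in every mutant.

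Each mutant was then read over the 8 genes together. In MSB3Δ 4 of 8 rose (ALD2, ALD3, ALD4 and ACH1) and 0 fell, where 3.93% of all 5727 genes were called higher and 0.559% lower. From these same profiles the study had already named ALD4 as higher in MSB3Δ, and ACS1 as higher with p over 0.05. The count in MSB3Δ is therefore not independent of that report. In NIT3Δ 2 of 8 rose (ALD3 and ALD4) and 0 fell, against 4.31% and 0.506% of all genes. In HSP26Δ 1 of 8 rose (ALD4) and 0 fell, against 5.67% and 2.41%. In TYS1 DAmP 0 of 8 passed, against 3.34% higher and 1.64% lower. Over the 8 genes the log2 fold change had a median of 0.55 for MSB3Δ (all genes tested 0.18), 0.82 for NIT3Δ (all 0.28), 0.51 for HSP26Δ (all 0.08) and 0.21 for TYS1 DAmP (all 0.07).
None of the 8 passed a Benjamini-Hochberg adjusted p under 0.05 in limma in any mutant with all libraries and no block. In other settings some did. With the replicate block 5 passed in MSB3Δ (ALD2, ALD3, ALD4, ACS1 and ACH1), 2 in NIT3Δ (ALD3 and ALD4) and 1 in HSP26Δ (ALD3). Under the block 608, 123 and 180 of all 5727 genes passed in these mutants, in the same order. Without MSB3Δ replicate 3, ALD3 (adjusted p = 0.00197 in limma) and ALD4 (0.0284) passed in MSB3Δ, among 130 of all genes. Without HSP26Δ replicate 2, ALD4 passed in HSP26Δ (0.0495 in limma), among 468 of all genes. With all libraries and no block the lowest among them was 0.398 for MSB3Δ, 0.563 for NIT3Δ, 0.189 for HSP26Δ and 0.614 for TYS1 DAmP. Of all genes in that setting, 0.0175% passed in MSB3Δ and likewise 0.0175% in NIT3Δ, while HSP26Δ had 0.0349% and TYS1 DAmP 0.0873%. At an unadjusted p under 0.05 with no limit on fold, limma gave 4 of the 8 for MSB3Δ, 2 for NIT3Δ, 2 for HSP26Δ and 1 for TYS1 DAmP. Many other genes passed this limit too. Ranked by p among all 5727 genes, the last member to pass was at 228 in MSB3Δ and 217 in NIT3Δ. It was at 471 in HSP26Δ and 168 in TYS1 DAmP. In HSP26Δ ALD3, which just missed the limit, ranked 904. Whether these counts exceeded the rate over all genes was not tested.
All 3 mutant libraries lay above both WT libraries for 4 of the 8 in MSB3Δ (26.1% of all genes), for 5 in NIT3Δ (38.6%), for 4 in HSP26Δ (27.6%) and for 3 in TYS1 DAmP (20.4%). All 12 lay above both WT libraries for 3 of 8 (ALD2, ALD3 and ALD4), against 7.86% of all genes. These counts share the 2 WT libraries, so they are not separate observations.
The median of all genes was off 0 by over 0.1 in MSB3Δ and NIT3Δ. Scaling each library by its median ratio moved it to 0 and changed the balance of calls to 148 genes higher and 111 lower in MSB3Δ (225 and 32 without scaling), 146 and 89 in NIT3Δ (247 and 29 without) and 247 and 257 in HSP26Δ (325 and 138 without). Of the 8 genes, ALD2, ALD3 and ALD4 still rose in MSB3Δ, ALD3 and ALD4 in NIT3Δ and ALD4 in HSP26Δ under this scaling, while ACH1 in MSB3Δ, with a fold below 1.5, did not. Relative to the median of all genes, the log2 fold change of ALD3 was 1.53 in MSB3Δ and 1.76 in NIT3Δ, and that of ALD4 0.79 and 1.26.

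**Figure D2:**
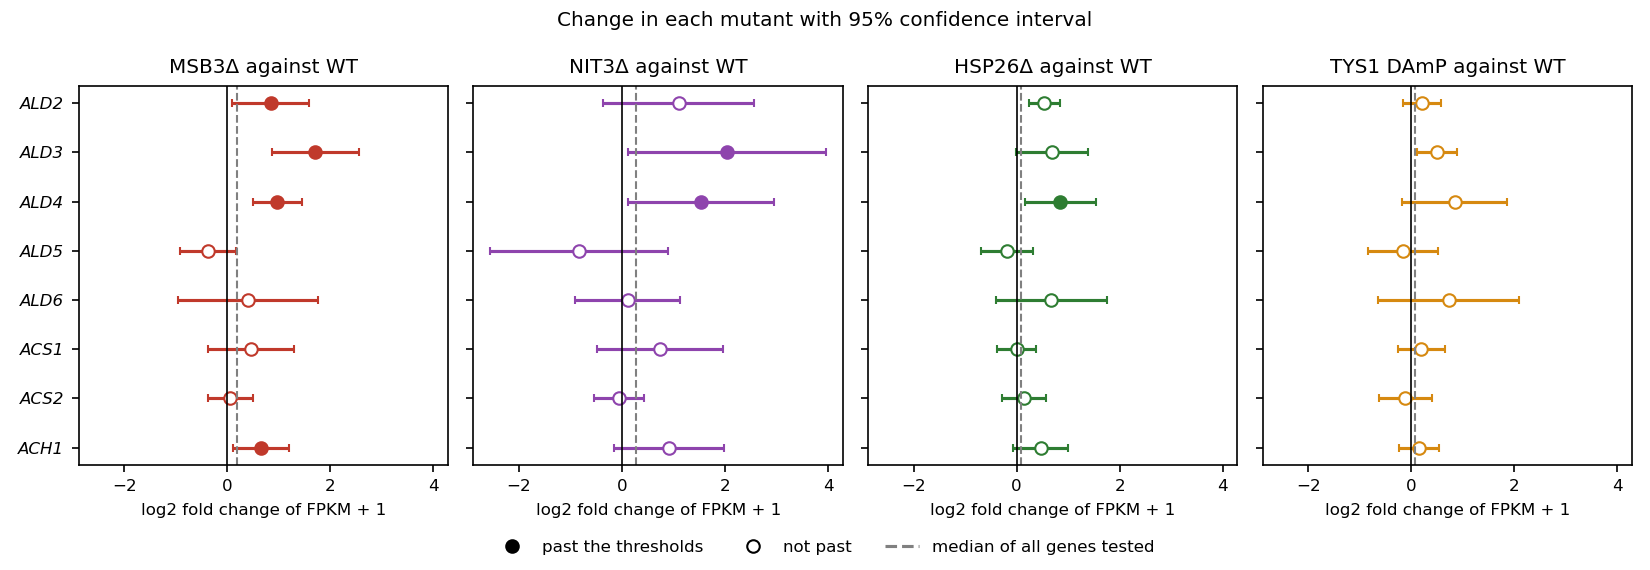
Log2 fold change of FPKM + 1 for each mutant against WT with its 95% confidence interval from limma, filled points passing the fold and unadjusted p thresholds and the dashed line giving the median of all genes tested. ALD3 and ALD4 are filled in MSB3Δ and NIT3Δ with log2 fold changes between 0.97 and 2.04, no point is filled in TYS1 DAmP, and the intervals of ALD6 cross 0 in all 4 mutants.

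These calls rested on few libraries. In MSB3Δ the calls on ALD3 and ALD4 held with each library left out in turn, while those on ALD2 and ACH1 were lost without MSB3Δ replicate 1, MSB3Δ replicate 2 or either WT library. ACS1 passed there without MSB3Δ replicate 3 (log2 fold change 0.77). In NIT3Δ replicate 2 lay far from the other libraries. Without it the log2 fold changes were smaller and closer, 1.16 ± 0.153 for ALD3 and 0.91 ± 0.124 for ALD4, and both passed with adjusted p-values of 0.00309 and 0.00376 in limma, along with 230 of all 5727 genes. The values of ALD2 (0.45), ACH1 (0.46) and ACS1 (0.24) were also less than those with all libraries, by more than 1.5 times. Without either WT library 0 of the 8 passed in NIT3Δ, and without NIT3Δ replicate 1 ALD2 (1.46) and ACH1 (1.18) passed too. In HSP26Δ the call on ALD4 was lost without HSP26Δ replicate 1 (log2 fold change 0.56, and 0.26 for ACH1), HSP26Δ replicate 3, WT replicate 1 or WT replicate 2. Without HSP26Δ replicate 2 ALD3 (0.84), ALD4 (1.10) and ACH1 (0.63) passed, without replicate 3 ALD3 (0.87), and without WT replicate 2 ALD6 (1.34). In TYS1 DAmP ALD4 passed without replicate 3 (1.16). With a single fit over all 5 groups the calls on ALD2, ALD4 and ACH1 in MSB3Δ and on ALD4 in HSP26Δ were lost, and ALD2 and ACH1 passed in NIT3Δ.

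The mutants were also set against each other, to ask whether a gene called in some of them and not in others differed between them. There were 48 tests, 8 genes in 6 pairs of mutants. In limma 0 passed an adjusted p under 0.05 and 3 had an unadjusted p under 0.05. Among all 5727 genes, that unadjusted limit was passed by 633 between NIT3Δ and HSP26Δ and by 432 between NIT3Δ and TYS1 DAmP. All 3 came from these pairs. In the other pairs 65 to 365 genes passed it. Whether 3 of 48 exceeded the rate over all genes was not tested. ALD3 was higher in NIT3Δ than in HSP26Δ by 1.35 ± 0.571 on the log2 scale (adjusted p = 0.437 in limma) and than in TYS1 DAmP by 1.54 ± 0.571 (adjusted p = 0.546). ACH1 was higher in NIT3Δ than in TYS1 DAmP by 0.77 (adjusted p = 0.546 in limma). A difference between mutants was therefore not shown for any of the 8 after adjustment.

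Ratios within a library do not depend on the scaling between libraries. ALD3 over ALD2 was 1.53, 1.74 and 1.31 in MSB3Δ and 1.30, 2.16 and 1.45 in NIT3Δ, against 0.843 and 0.781 in WT. The order of the copies was thus turned round in all 6 of these libraries. In HSP26Δ it was 1.45, 0.698 and 0.743 and in TYS1 DAmP 0.879, 1.11 and 1.04, ranges that lay on both sides of 1. ALD4 over ALD5, the mitochondrial pair, was 1.11, 0.686 and 0.746 for MSB3Δ, 0.669, 12.2 and 0.610 for NIT3Δ, 0.987, 0.390 and 0.759 for HSP26Δ and 1.69, 0.432 and 0.376 for TYS1 DAmP, against 0.362 and 0.289 in WT. All 12 mutant libraries had a higher ratio than both WT libraries, and ALD4 exceeded ALD5 in 3 of them. ALD4 was itself above WT in all 12, so this count is not separate from that, and the share over other gene pairs was not computed. ALD4 over ALD6 had mutant libraries inside, above and below the WT range. It was 1.21, 0.832 and 0.277 for MSB3Δ and 0.621, 3.42 and 0.803 for NIT3Δ. HSP26Δ had 0.46, 0.455 and 0.588 and TYS1 DAmP 0.456, 0.479 and 0.492, against 0.68 and 0.284 in WT. ACS2 over ACS1 was 6.53, 10.6 and 20.1 for MSB3Δ, 14.9, 4.15 and 9.85 for NIT3Δ, 16.1, 13.3 and 21.6 for HSP26Δ and 7.88, 14.7 and 15.2 for TYS1 DAmP, against 14.6 and 15.7 in WT, with mutant libraries on both sides of WT. No test was run on these ratios.

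**Figure D3:**
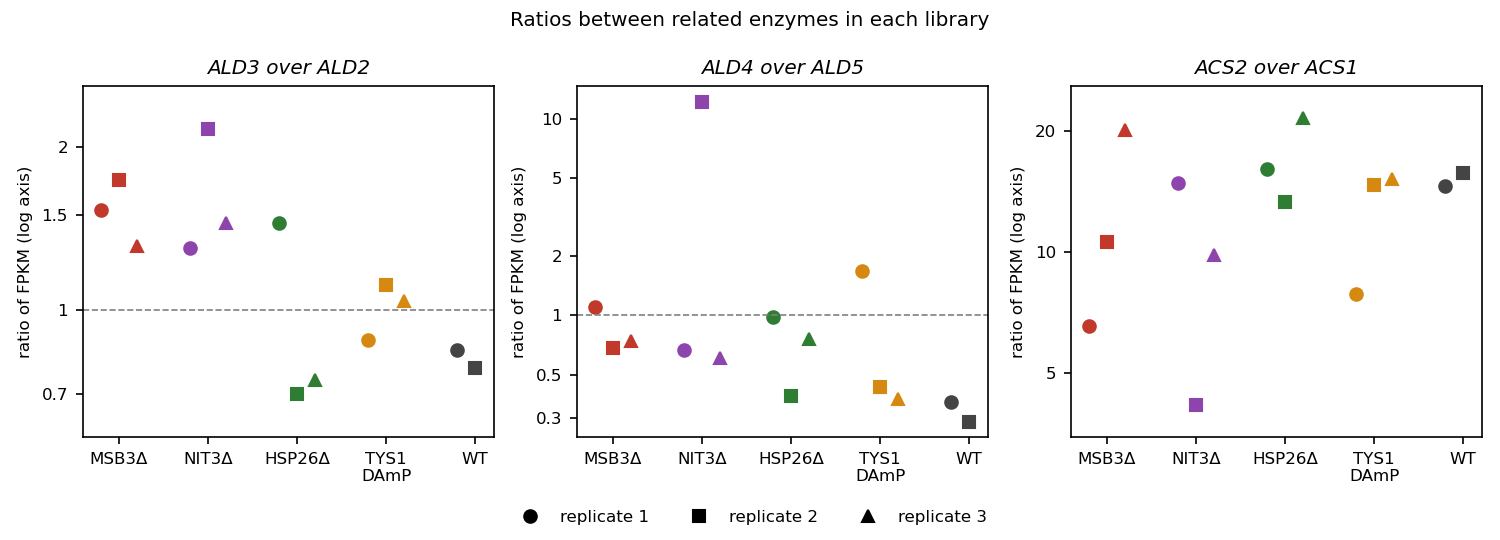
Ratio of FPKM on a log axis for 3 pairs of related enzymes, 1 point per library, with the dashed line at equal levels. All MSB3Δ and NIT3Δ points of ALD3 over ALD2 lie above 1, between 1.30 and 2.16, and both WT points lie below it.

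The ribosomal protein share was set beside the 8 genes as a description, and no association with it was computed. FPKM is relative to all mapped fragments, so a lower share can by itself raise the values of other genes. In NIT3Δ replicate 2 ALD6 (131 FPKM) and ACS2 (137) were near WT. The library with the lowest ribosomal protein share, NIT3Δ replicate 2 at 17.4%, had the highest ALD2, ALD3, ALD4, ACS1 and ACH1 and the lowest ALD5 of all 14. MSB3Δ replicate 1, the next lowest at 29.0%, was next to it in ALD2, ALD3, ACS1 and ACH1. At the other end, both WT libraries, with the highest shares of 47.0% and 45.6%, had the lowest ALD4. TYS1 DAmP replicate 3 (44.6%, ALD4 at 73.1 FPKM) and HSP26Δ replicate 2 (44.1%, ALD4 at 80.2 FPKM) came next in both. TYS1 DAmP replicate 1 (39.1%) had the highest ALD6 of all, 459 FPKM, and ALD4 at 209, with ALD2, ALD3 and ACH1 between 17.9 and 49.7 FPKM, so the set did not move as 1 unit in every library. Of 8 glucose-repressed genes, HXK1 made up most of the summed level, which was 696 to 1209 FPKM for MSB3Δ, 872 to 2661 for NIT3Δ, 584 to 984 for HSP26Δ and 697 to 1258 for TYS1 DAmP, against 584 and 547 in WT. Without HXK1 the other 7 summed to 205, 168 and 116 FPKM for MSB3Δ, 124, 309 and 138 for NIT3Δ, 145, 124 and 89.9 for HSP26Δ and 155, 162 and 131 for TYS1 DAmP, against 132 and 124 in WT, so several mutant libraries were level with WT or below it. None of the 8 glucose-repressed genes was at 0. The part of growth state in the calls was not tested.
Library by library, the 8 genes lay above the WT mean by a median of 1.02, 0.57 and 0.34 on the log2 scale for MSB3Δ, of 0.37, 1.76 and 0.46 for NIT3Δ, of 0.71, 0.22 and 0.36 for HSP26Δ and of 0.35, 0.28 and 0.08 for TYS1 DAmP. The median over all genes in the same libraries ran from 0.41 in MSB3Δ replicate 1 and 0.63 in NIT3Δ replicate 2 down to −0.07 in TYS1 DAmP replicate 3. The members' median was above that of all genes in each of the 12 mutant libraries. All these values are taken from the same WT mean, so they are not separate observations. Other sets of genes were not compared in this way.

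**Figure D4:**
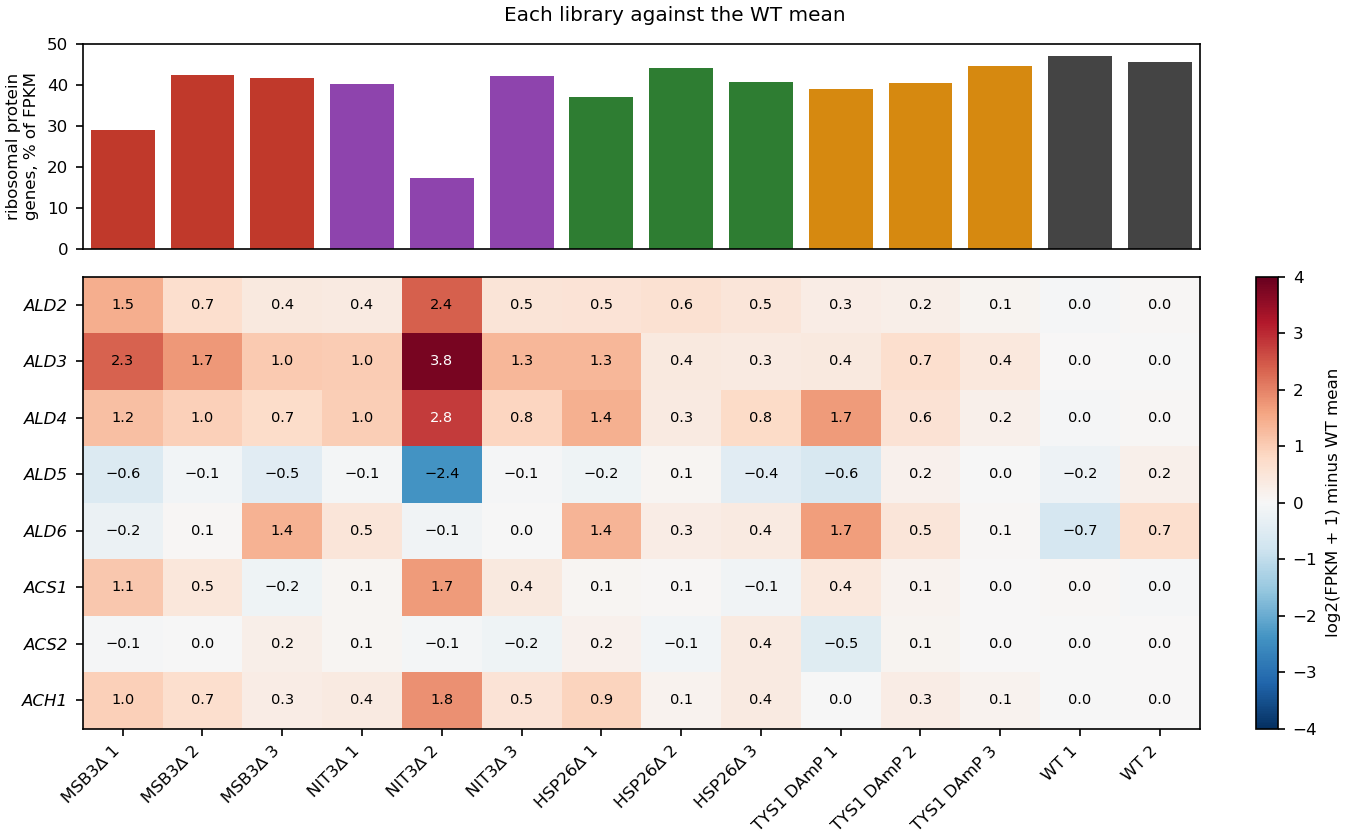
Upper panel, share of summed FPKM from ribosomal protein genes in each library; lower panel, log2(FPKM + 1) of each gene minus its WT mean, from blue (lower) to red (higher), with the value in each cell. NIT3Δ replicate 2 and MSB3Δ replicate 1 have the lowest bars, 17.4% and 29.0%, and the deepest red for ALD3, while the ALD2, ALD3 and ALD4 cells are above 0 in all 12 mutant libraries.

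**Figure D5:**
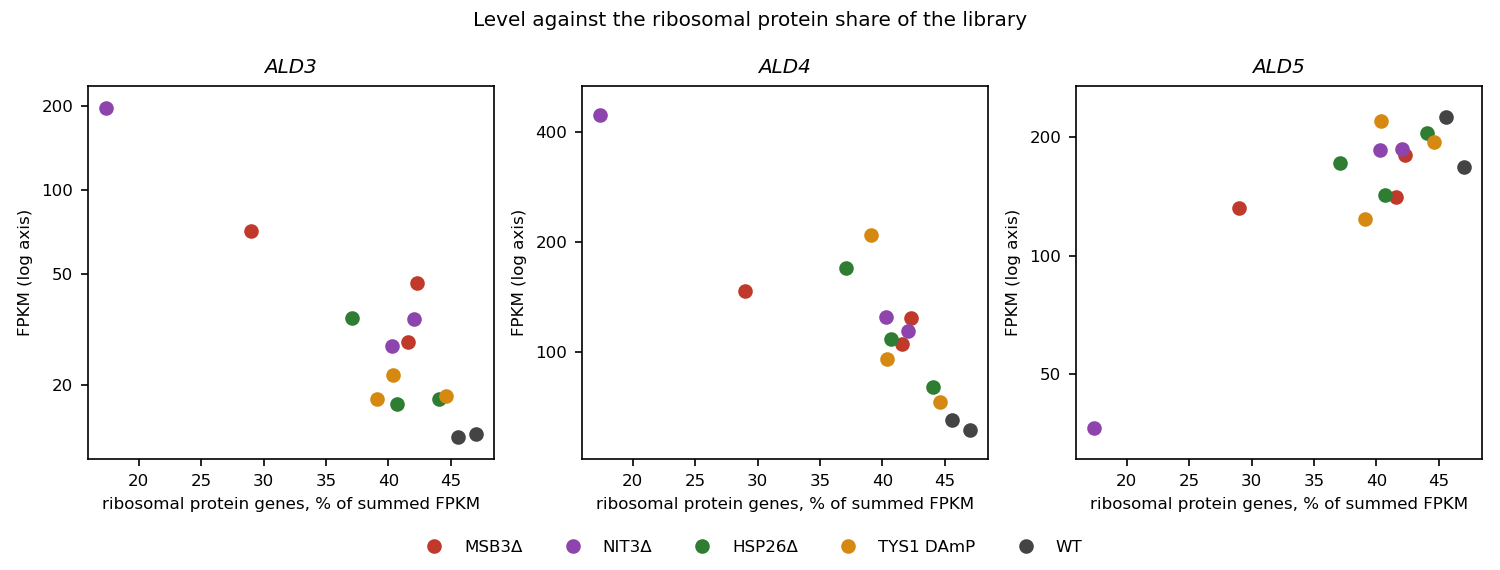
FPKM of ALD3, ALD4 and ALD5 on a log axis against the share of summed FPKM from ribosomal protein genes, 1 point per library, coloured by strain. The WT points sit at the right with the lowest ALD3 and ALD4, and NIT3Δ replicate 2 sits alone at the left at 17.4%, with ALD4 at 447 and ALD5 at 36.5 FPKM.

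Around the 8 genes, 59 genes of the same routes were listed in 8 groups, and all 59 were tested. At the same thresholds MSB3Δ had 9 that rose, NIT3Δ 7, HSP26Δ 7 and TYS1 DAmP 4, with 0 that fell in any mutant. As a share of the 59 the rises came to 15.3%, 11.9%, 11.9% and 6.78%, beside 3.93%, 4.31%, 5.67% and 3.34% of all genes, and 0.506% to 2.41% of all genes fell. The median over the 59, on the log2 scale, was 0.33 for MSB3Δ, 0.43 for NIT3Δ, 0.21 for HSP26Δ and 0.24 for TYS1 DAmP, each above the median of all genes given before. The 9 genes that make acetaldehyde or reduce it to ethanol (pyruvate decarboxylases, alcohol dehydrogenases and SFA1) had 0 calls in every mutant, where the shares over all genes would give fewer than 1. Their list medians were between 0.04 and 0.12, each below the median of all genes. Calls came from the other groups.
MPC3, a subunit of the mitochondrial pyruvate carrier made in respiring cells, was at 99.4, 40.9 and 24.7 FPKM in MSB3Δ and at 48.0, 333 and 94.0 in NIT3Δ, against 12.4 and 21.3 in WT. It rose in MSB3Δ (log2 fold change 1.46 ± 0.546), NIT3Δ (2.75 ± 0.762) and HSP26Δ (0.83 ± 0.282), with adjusted p-values of 0.652, 0.563 and 0.279 from limma. CIT1, mitochondrial citrate synthase, which condenses acetyl-CoA with oxaloacetate, was at 320, 218 and 187 FPKM in MSB3Δ and at 233, 644 and 257 in NIT3Δ, against 124 and 129 in WT. CIT1 rose by 0.89 ± 0.262 in MSB3Δ (adjusted p = 0.652 in limma) and by 1.42 ± 0.457 in NIT3Δ (adjusted p = 0.563) on the log2 scale, and was also called higher in HSP26Δ.
USV1, a zinc finger transcription factor of growth on non-fermentable carbon, was the only listed gene to rise in all 4 mutants. The study had already reported USV1 as higher in MSB3Δ from these profiles. The share of listed genes that rose in MSB3Δ therefore counts a gene known beforehand. MSB3Δ averaged 105 ± 25.3 FPKM, NIT3Δ 194 ± 84.3, HSP26Δ 94.9 ± 29.8 and TYS1 DAmP 133 ± 51.3 (SD, n = 3 each), with 40.1 ± 0.297 in WT (SD, n = 2). The log2 fold change of USV1 was 1.34, 2.16, 1.17 and 1.64 in this order, with adjusted limma p-values of 0.398, 0.563, 0.174 and 0.258.
In TYS1 DAmP the listed gene with the largest rise was ATF2, an alcohol acetyltransferase that consumes acetyl-CoA, at 134, 93.5 and 102 FPKM against 23.7 and 18.9 in WT. It was the only one of the 59 with an adjusted p under 0.05 in limma in any mutant (log2 fold change 2.30 ± 0.211, adjusted p = 0.0316). In HSP26Δ ATF2 was at 59.6, 32.1 and 38.8 FPKM and rose at the unadjusted thresholds (log2 fold change 0.96 ± 0.261, adjusted p = 0.228 in limma). MSC7, a gene of the aldehyde dehydrogenase family, was at 100.5, 82.7 and 82.4 FPKM in TYS1 DAmP, against 52.4 and 62.0 in WT, higher by 0.62 ± 0.173 on the log2 scale (adjusted p = 0.535 in limma).

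The genes most like each member over the 14 libraries, by Pearson correlation of log2(FPKM + 1), are given as a description. The libraries share strains, and NIT3Δ replicate 2 and MSB3Δ replicate 1 lie far from the others, so each value is followed by that over the 12 other libraries. ALD4 was most like NTH2 (0.982, and 0.974 over 12), GLG1 (0.979, 0.971) and UGP1 (0.977, 0.959), a trehalase gene, a glycogenin gene and the UDP-glucose pyrophosphorylase gene. ACS2 was most like ERG13 (0.909, 0.911), ACC1 (0.888, 0.888) and FAS1 (0.883, 0.891), which encode HMG-CoA synthase, acetyl-CoA carboxylase and a fatty acid synthase subunit. For these members the values hardly moved without the outlying libraries. ALD3 was most like LAP2 (0.980, 0.917), MDH1 (0.971, 0.893) and NDI1 (0.970, 0.875), and ACH1 most like ATP2 (0.972, 0.923), NDI1 (0.965, 0.874) and AZR1 (0.963, 0.885). ALD2 was most like MMM1 (0.985, 0.878), DBP1 (0.979, 0.840) and URA10 (0.978, 0.786), ACS1 most like MED8 (0.985, 0.902), YMR090W (0.983, 0.940) and AIM19 (0.982, 0.869), and ALD6 most like ICE2 (0.853, 0.845), KES1 (0.822, 0.793) and SSU1 (0.813, 0.785). ALD5 was most like NSR1 (0.958, 0.690), a nucleolar protein gene, and the ribosomal protein genes RPL3 (0.949, 0.757) and RPS0A (0.947, 0.609), values that fell most without those libraries.
Between members, the correlation was 0.94 for ALD2 with ALD3 (0.73 over 12 libraries) and 0.96 for ALD3 with ACH1 (0.86 over 12). For ALD4 with ALD5 it was −0.84 (−0.58 over 12) and for ALD4 with ALD6 0.19 (0.68 over 12). ACS2 had values between −0.40 and 0.14 with the other members over 14 libraries, and between −0.72 (ACS1) and 0.38 (ACH1) over 12.

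Promoter windows are shown for ALD3, ALD4 and ALD2, which were above WT in all 12 mutant libraries. Each runs 5′ to 3′ on the coding strand of R64, with 250 bases before the start codon and 50 from it on. Capitals mark AGGGG or its complement, the letters of the stress element bound by Msn2 and Msn4. The windows lie at chr13:600823-601122 (ALD3, minus strand, chromosome XIII), chr15:1039590-1039889 (ALD4, plus strand, chromosome XV) and chr13:603033-603332 (ALD2, minus strand, chromosome XIII).
ALD3: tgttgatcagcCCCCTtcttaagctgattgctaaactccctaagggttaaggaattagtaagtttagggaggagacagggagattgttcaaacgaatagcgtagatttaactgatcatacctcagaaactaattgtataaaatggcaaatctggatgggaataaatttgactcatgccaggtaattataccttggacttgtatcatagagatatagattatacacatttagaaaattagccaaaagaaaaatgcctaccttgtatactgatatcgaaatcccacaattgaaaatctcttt
ALD4: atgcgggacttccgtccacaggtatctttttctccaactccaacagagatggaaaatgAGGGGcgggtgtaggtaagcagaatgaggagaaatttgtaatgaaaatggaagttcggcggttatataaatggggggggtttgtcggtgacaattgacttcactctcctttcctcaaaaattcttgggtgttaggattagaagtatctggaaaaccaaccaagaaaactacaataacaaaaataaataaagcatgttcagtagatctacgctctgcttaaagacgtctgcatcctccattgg
ALD2: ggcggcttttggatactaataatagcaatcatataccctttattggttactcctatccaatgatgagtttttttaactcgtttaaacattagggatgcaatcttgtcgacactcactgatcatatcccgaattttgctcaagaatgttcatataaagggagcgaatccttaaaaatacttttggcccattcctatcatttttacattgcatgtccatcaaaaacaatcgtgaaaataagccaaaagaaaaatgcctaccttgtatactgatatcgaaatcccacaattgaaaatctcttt
AGGGG on either strand was found in 4 of the 8 windows (ALD3, ALD4, ALD6 and ACH1, 1 match each), as in 21.6% of the 6020 windows of the same length over protein-coding genes. CCAAT, the box of the Hap complex, was found in ALD2 (2 matches) and in 43.3% of all windows, and the match in the ALD4 window lies in the coding bases at its end, not before the start codon. TTGGNG, part of the site of Adr1, was found in ALD4 and ACS1 (2 matches each), and in 34.0% of all windows. In the 600 bases before the start codon AGGGG was found in 6 of the 8 genes, against 39.6% of all genes with at least 1. There were 4 matches in ACH1, 3 in ALD6, 2 each in ALD3, ALD4 and ACS1 and 1 in ALD5. Of all genes, 10.7% had 2 or more. ALD2 had no AGGGG in either window, while its neighbour ALD3 had 1 and 2. In the same 600 bases CCAAT was found in ALD2, ALD4, ACS1, ACS2 and ACH1, and in 70.2% of all genes. TTGGNG was found there in ALD4, ALD5, ACS1 and ACS2, and in 59.7% of all genes. A match describes letters only, and no binding was measured here.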

How the data were processed

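RNA-seq libraries of MSB3Δ, NIT3Δ, HSP26Δ, TYS1 DAmP (3 each) and WT (2; the series record describes 3 per group) were grouped by the labels. The authors deposited 1 table of FPKM values per gene and library. The submitters' processing notes name HISAT2 2.1.0, Bowtie2, RSEM 1.3.1, DESeq2 1.4.5 and build R64 without saying which step each served. How RSEM-type tools divide reads between ALD2 and ALD3 could move their separate values. FPKM is relative to all mapped fragments, so a few abundant genes can shift the rest. Counts were not used, and depth was estimated from steps in low values of 125 short genes, with 122 bases taken off each length. The depths were fitted to those low values, and no separate check of them was made.

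Each mutant was compared with WT by limma 3.58.1 (R 4.3.3; moderated variances, trend, robust) on log2(FPKM + 1) over genes averaging 1 FPKM or more. The replicate block was treated as an alternative only, since same-numbered libraries did not deviate together. Members, lists and tests were chosen with earlier results of these data known. Named genes were all members, up to 3 largest rises and falls per mutant among listed genes past the thresholds with all 3 libraries on one side of WT, and the 3 genes most correlated with each member. Positions, coding identity and windows came from the RefSeq R64 genome (Biopython 1.88), to which 5868 of 5886 symbols matched directly. The tests were checked on simulated data with independent noise for each gene and library. That check did not cover outlying libraries or shifts of whole libraries. Protein sequences were not used here. Each comparison was repeated with ALD2 and ALD3 summed, without each library, with the block, with 1 fit over 5 groups, with libraries scaled by median ratio, at a filter of 10 FPKM or none, and with a pseudocount of 0.1. Correlations without 2 libraries and the 600-base window were added after seeing the data. Tables were handled with pandas 2.3.3 and NumPy 2.4.6 in Python 3.11.15, and figures drawn with matplotlib 3.10.9.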

Additional observations from a re-analysis of the deposited data

How the results depend on the processing

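The calls of 4 of 8 genes higher for MSB3Δ, 2 for NIT3Δ, 1 for HSP26Δ and 0 for TYS1 DAmP were recomputed under each alternative. Leaving out a library gave 2 to 5 for MSB3Δ (101 to 1017 genes called over all), 0 to 4 for NIT3Δ (47 to 550), 0 to 3 for HSP26Δ (291 to 948) and 0 to 1 for TYS1 DAmP (130 to 452), where the lone WT library, when left alone, is assumed to vary like the mutant ones. One fit over 5 groups gave 1 for MSB3Δ (ALD3, with ALD4 lost; 90 genes over all), 4 for NIT3Δ (634), 0 for HSP26Δ (229) and 184 genes over all in TYS1 DAmP. A pseudocount of 0.1 gave 2 in HSP26Δ. With the replicate block, 5 rose in MSB3Δ, 4 rose and 1 fell (ALD5) in NIT3Δ, 2 rose in HSP26Δ and 1 in TYS1 DAmP, and 1069 genes were called in MSB3Δ, 681 in NIT3Δ and 513 in TYS1 DAmP. The block takes its estimate from replicates 1 and 2, as WT has no replicate 3, and same-numbered deviations correlated between −0.28 and 0.15, so the numbers were not read as pairs.

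Log2 fold changes turned sign only where they were near 0 or their error was wide. Median-ratio scaling gave −0.13 for ACS2 in MSB3Δ, −0.18 for ALD6 in NIT3Δ and −0.09 for ACS1 in HSP26Δ. The replicate block gave −0.09 for ALD6 and −0.03 for ACS2 in MSB3Δ, and 0.00 for ACS2 in NIT3Δ. Leaving out a library gave −0.26 to 1.08 for ALD6 and −0.03 to 0.11 for ACS2 in MSB3Δ, −0.56 to 0.78 for ALD6 and −0.12 to 0.00 for ACS2 in NIT3Δ, −0.04 to 0.07 for ACS1 and −0.39 to 0.03 for ALD5 in HSP26Δ, and −0.36 to 0.09 for ALD5 and −0.22 to 0.07 for ACS2 in TYS1 DAmP. The cause was not tested. Of 360 recomputed log2 fold changes, 300 kept their direction and their side of the thresholds, and 95 of 132 recomputed counts came within 1.5 times of the first. The number of libraries, 3 against 2, and the spread of ALD6 in WT limit these comparisons, and depth does not limit the detection of any of the 8 genes.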
